A study of Homo sapiens with 12 samples.

Results

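AP-1 is a family of basic leucine zipper proteins that bind DNA as dimers. FOS proteins (FOS, FOSB, FOSL1, FOSL2) cannot pair with themselves and need a JUN protein (JUN, JUNB, JUND), whereas JUN proteins also form dimers among themselves and with ATF3 and BATF3, and MAFF is a small MAF protein of the same superfamily that lacks an activation domain. In squamous epithelium AP-1 dimers bind promoters and enhancers of keratinocyte differentiation, protease and cytokine genes, and which dimers form depends on which subunits a cell makes.

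The AP-1 pool described here is the set of 10 genes FOS, FOSB, FOSL1, FOSL2, JUN, JUNB, JUND, ATF3, BATF3 and MAFF, each matched by its Ensembl ID in a table of 20738 gene IDs, and all 10 had counts. No threshold on measured values entered the rule, but the set was drawn up with earlier results of these data known. UM-SCC-47 and UPCI-SCC-090 are lines of squamous carcinoma of the head and neck that carry HPV. Their bulk RNA was sequenced after 72 h with 500 nM JQ1, which displaces BET bromodomain proteins from acetylated chromatin, or with 0.1% DMSO as the vehicle. Each of the 4 groups had 3 libraries, 12 in all, and was 1 line at 1 dose and 1 time. Nothing in the labels says that replicates came from separate cultures, so p-values measure the spread between these libraries, which may be technical. In bulk RNA, fewer cells of a type and less RNA per cell cannot be told apart.

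Total estimated counts ranged from 20349275 to 30788657 per library. All 10 epithelial markers reached 1 CPM (counts scaled to library size) in at least 1 library of 3 groups and 9 of 10 did in UPCI-SCC-090 with JQ1, and their summed level went with JQ1 from 12516 to 14770 CPM to 42980 to 63604 CPM in UM-SCC-47 and from 5982 to 7834 CPM to 13057 to 21578 CPM in UPCI-SCC-090. A few keratins carried these sums. In UM-SCC-47 KRT8 went from a mean of 5527 to 27842 CPM and KRT18 from 2226 to 15490 CPM, while KRT5 fell from 607 to 172 CPM. In UPCI-SCC-090 KRT19 went from 2897 to 11029 CPM. By edgeR (adjusted p under 0.05) 5 of the 10 were higher and 1 lower in UM-SCC-47, against 16.1% and 25.5% of all genes. In UPCI-SCC-090 3 were higher, against 7.67% of all genes, and 7 were not called. The summed levels of 8 fibroblast, 8 leukocyte and 6 endothelial markers were at most 43.7 CPM in any library, with 1 to 5 fibroblast and 3 to 5 leukocyte markers at 0 in every library of a group. Libraries differed in how their counts depended on the GC content of the gene. Slopes of log2 CPM per 10 percentage points of GC were taken relative to the mean of all libraries of the line, DMSO and JQ1 together. The slope was -0.501 in UM-SCC-47 JQ1 library 3 and 0.645 in UPCI-SCC-090 DMSO library 2. It was 0.439 in UPCI-SCC-090 JQ1 library 2 and -0.702 in UPCI-SCC-090 JQ1 library 3. In the others it lay between -0.292 and 0.242. JUND (69.9% GC) and JUNB (64.9%) were the most GC-rich members, against a median of 50.1% over the table.

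Promoter sequences (RefSeq, GRCh38.p14) were matched for 8 members, namely FOS, FOSB, FOSL2, JUN, JUNB, JUND, ATF3 and MAFF. The 250 bases before the start site are shown for the 5 genes that rose with JQ1 in at least 1 line. FOS and JUNB rose in UPCI-SCC-090, and JUN, JUND and ATF3 rose in UM-SCC-47. Capitals mark the CRE core TGACGT on either strand (so also ACGTCA), the full CRE TGACGTCA that contains it, the variant TGACATCA, and TATAAA.
FOS (chr14:75278578-75278827, + strand): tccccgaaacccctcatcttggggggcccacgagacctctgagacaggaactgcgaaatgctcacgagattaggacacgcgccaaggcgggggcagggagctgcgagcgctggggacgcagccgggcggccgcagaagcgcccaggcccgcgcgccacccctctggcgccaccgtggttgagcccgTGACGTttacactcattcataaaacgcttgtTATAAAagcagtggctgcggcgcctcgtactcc
JUNB (chr19:12791236-12791485, + strand): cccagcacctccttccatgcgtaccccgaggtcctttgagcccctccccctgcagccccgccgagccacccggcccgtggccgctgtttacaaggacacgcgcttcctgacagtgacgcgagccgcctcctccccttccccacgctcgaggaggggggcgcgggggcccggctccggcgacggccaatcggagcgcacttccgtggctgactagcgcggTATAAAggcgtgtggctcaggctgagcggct
JUN (chr1:58784048-58784297, - strand): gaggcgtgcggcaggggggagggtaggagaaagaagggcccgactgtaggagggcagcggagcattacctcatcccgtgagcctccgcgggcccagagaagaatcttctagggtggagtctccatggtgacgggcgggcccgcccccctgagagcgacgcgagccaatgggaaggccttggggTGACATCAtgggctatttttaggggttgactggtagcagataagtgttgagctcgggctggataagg
JUND (chr19:18281623-18281872, - strand): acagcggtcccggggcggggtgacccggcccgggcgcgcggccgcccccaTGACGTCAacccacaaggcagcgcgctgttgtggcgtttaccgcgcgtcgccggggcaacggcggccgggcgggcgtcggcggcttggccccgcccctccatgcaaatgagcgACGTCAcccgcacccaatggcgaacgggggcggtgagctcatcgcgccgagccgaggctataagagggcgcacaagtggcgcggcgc
ATF3, first of 2 start sites (chr1:212565157-212565406, + strand): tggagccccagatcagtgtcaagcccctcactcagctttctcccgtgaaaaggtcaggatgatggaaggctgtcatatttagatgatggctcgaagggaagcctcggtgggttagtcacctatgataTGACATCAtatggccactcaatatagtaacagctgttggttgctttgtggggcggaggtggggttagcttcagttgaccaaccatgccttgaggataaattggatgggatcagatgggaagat

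FOS and JUNB each held TATAAA close to the start, ending 28 and 26 bases before it, and neither JUN, JUND nor the first ATF3 window held it. Of the 8 matched members 4 held TATAAA. The others were FOSB, ending 25 bases before the start, and ATF3 at its second start site, ending 225 bases before it. FOSB was not called higher with JQ1 in either line. Whether TATAAA bears on the response to JQ1 was not tested. Over all 35116 RefSeq windows of this length, 10.7% held TATAAA on either strand. JUN and ATF3 shared the variant TGACATCA, ending 60 and 116 bases before the start, which 2.37% of all windows held. The CRE core was in 5 of the 8 matched members (FOS, FOSB, FOSL2, JUND, MAFF) and in 7.1% of all windows. JUND held it at 2 places, of which the farther, 200 to 193 bases before the start, was a full CRE (1.65% of windows). The AP-1 site TGACTCA was in no member's window and in 4.2% of all windows. These are letter matches in the reference and no measurement of binding was made here.

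In DMSO the pools of the 2 lines differed in their FOS and JUN partners. Shares were computed from CPM per kb of median transcript length, so that genes of different length can be compared, and are given as a percent of the sum over the 10 genes, mean ± SD (n = 3 libraries). A share does not depend on how libraries were scaled, and none was tested. In UM-SCC-47 JUNB led with 27.3% ± 2.3, followed by FOSL2 (22.3% ± 1.2), JUND (15.1% ± 0.35), FOSL1 (12.4% ± 0.65), ATF3 (11.7% ± 0.84) and JUN (7.01% ± 0.43). The ranges of FOSL1 and ATF3 overlapped and the other neighbours among these 6 did not. In UPCI-SCC-090 JUND led with 30.2% ± 3.3, ahead of FOSL2 (20.5% ± 1.8), and ATF3 (15.7% ± 0.94), JUN (14.9% ± 1.5) and JUNB (14.1% ± 0.54) followed with overlapping ranges. FOSL1 made up 1.01% ± 0.17 there. FOSB and FOS were minor in both DMSO pools, FOS at 1.90% ± 0.12 in UM-SCC-47 and 0.695% ± 0.065 in UPCI-SCC-090.

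**Figure D1:**
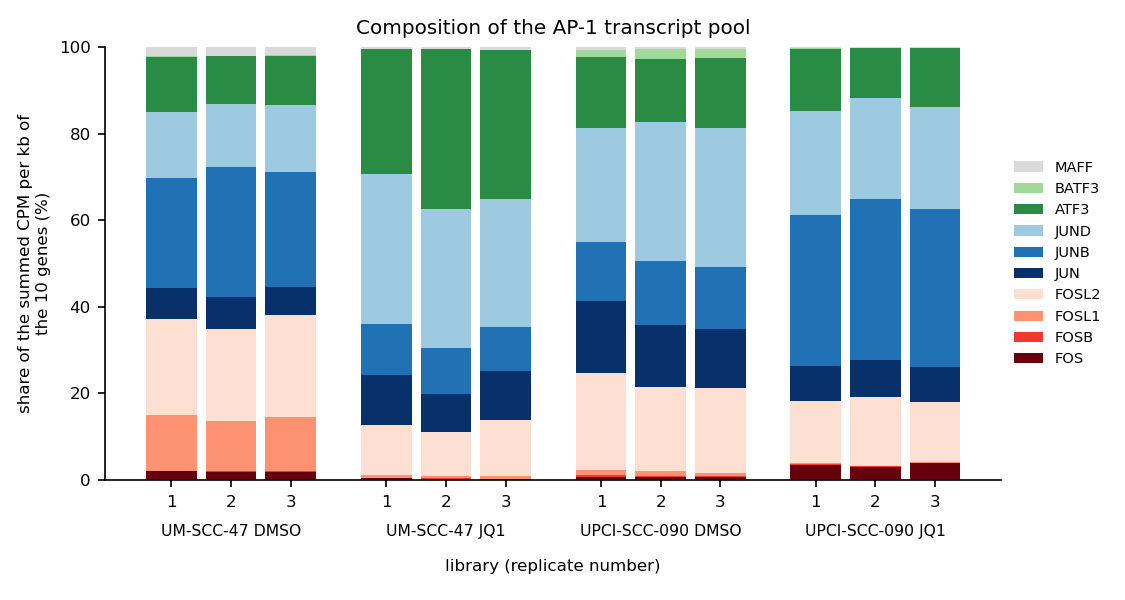
Share of each of the 10 AP-1 genes in the summed CPM per kb (y axis, %), 1 bar per library (x axis, replicate number) in the 4 groups. FOSL1 takes 12.4% on average in UM-SCC-47 with DMSO and 0.631% with JQ1, and JUNB takes 14.1% in UPCI-SCC-090 with DMSO and 36.2% with JQ1.

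With JQ1 the 2 pools moved in different ways. In UM-SCC-47 ATF3 (33.5% ± 4.1) and JUND (32.0% ± 2.5) led with overlapping ranges, and FOSL2 (11.5% ± 1.3), JUNB (10.9% ± 0.88) and JUN (10.6% ± 1.6) overlapped behind them. The FOS subfamily together went from 36.7% ± 1.6 with DMSO to 12.5% ± 1.3 with JQ1, and the JUN subfamily from 49.5% ± 2.2 to 53.5% ± 3.9, whose library ranges overlapped. ATF3, BATF3 and MAFF together went from 13.8% ± 0.96 to 34.0% ± 4.1, nearly all of it ATF3. In UPCI-SCC-090 JUNB led with 36.2% ± 1.2, then JUND (23.6% ± 0.44), FOSL2 (14.6% ± 1.1) and ATF3 (13.2% ± 1.4), the last pair overlapping. There the FOS subfamily went from 22.5% ± 2.0 to 18.4% ± 0.58 and the JUN subfamily from 59.2% ± 2.4 to 68.1% ± 1.0.

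The order depends on the length used, most for ATF3, FOS and FOSL2. With the length of the union of exons, ATF3 was 3.66% and 12.8% of the UM-SCC-47 pool with DMSO and JQ1, and JUND led there with JQ1 at 37.7%. By the same length JUNB was second in UPCI-SCC-090 with DMSO, at 23.1% behind JUND at 31.1%. FOSL2 was at rank 4 there, with 15.7%, and at rank 5 in UM-SCC-47 with JQ1, with 10.1%. JUNB led the UM-SCC-47 DMSO and UPCI-SCC-090 JQ1 pools with both of these lengths. With no length correction FOSL2 led both DMSO pools instead, at 38.0% in UM-SCC-47 and 34.6% in UPCI-SCC-090. The subfamily shares of the pool depend on the length as well. In UM-SCC-47 the JUN subfamily share rose more with the union of exons or with no length correction than with the median transcript length.

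Within the JUN subfamily, which leaves ATF3 out, JUNB and JUND traded places in opposite directions. In UM-SCC-47 JUNB was 53.1%, 57.7% and 54.9% of the summed JUN, JUNB and JUND level with DMSO and 20.5%, 20.7% and 19.9% with JQ1. JUND went there from 28.3% to 31.8% with DMSO to 57.8% to 62.3% with JQ1. In UPCI-SCC-090 JUNB was 24.0%, 23.9% and 23.8% with DMSO and 52.0%, 54.0% and 53.5% with JQ1. So JUNB was the largest JUN member in the UM-SCC-47 DMSO libraries and in the UPCI-SCC-090 JQ1 libraries, and JUND in the other 6, with no overlap of the JUNB shares between DMSO and JQ1 in either line. With no length correction JUN (43.6% ± 4.4) and not JUND (33.0% ± 3.6) was the largest in UPCI-SCC-090 with DMSO. Over the libraries of that group, whose GC slopes differed, the JUND share ran from 46.8% to 53.5% and the JUN share from 22.7% to 29.3%, and no share was computed from GC-corrected counts. JUN itself was 14.2% ± 0.84 and 19.8% ± 2.6 in UM-SCC-47 and 25.2% ± 3.6 and 12.1% ± 0.19 in UPCI-SCC-090, each with DMSO and with JQ1.

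Within the FOS subfamily FOSL2 was the largest member in all 12 libraries. FOSL1 was 33.7% ± 1.1 of the FOS subfamily in UM-SCC-47 with DMSO and 5.08% ± 1.1 with JQ1, close to the 4.51% ± 0.75 of UPCI-SCC-090 with DMSO. FOS went from 5.19% ± 0.29 to 2.72% ± 0.53 in UM-SCC-47 and from 3.09% ± 0.058 to 19.0% ± 3.1 in UPCI-SCC-090. The last value was 11.3% ± 2.0 with the exon union and 5.44% ± 1.1 with no length correction, from 1.68% and 0.792% with DMSO. The ratio of summed JUN to summed FOS subfamily transcripts per kb was 1.35 ± 0.12 with DMSO and 4.30 ± 0.51 with JQ1 in UM-SCC-47, and 2.65 ± 0.32 and 3.70 ± 0.088 in UPCI-SCC-090. The summed pool went from 238 ± 27 to 478 ± 83 CPM per kb in UM-SCC-47, without overlap, and from 256 ± 60 to 410 ± 154 CPM per kb in UPCI-SCC-090, where JQ1 library 3 (282) lay below DMSO library 2 (311). The fold rise of the pool in UM-SCC-47 was smaller with the exon union or with no length correction.

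**Figure D2:**
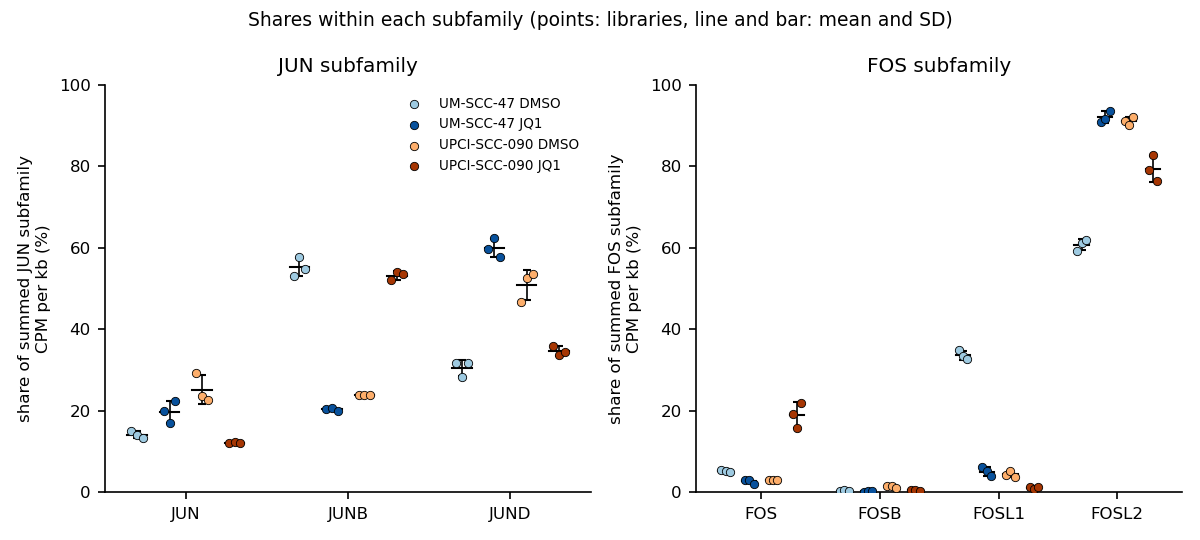
Share of each member within the JUN subfamily (left) and the FOS subfamily (right), in % of the subfamily's summed CPM per kb, with 1 point per library and the mean and SD of each group. The JUNB points sit at 53.1 to 57.7% and 19.9 to 20.7% in UM-SCC-47 (DMSO, JQ1) and at 23.8 to 24.0% and 52.0 to 54.0% in UPCI-SCC-090.

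JQ1 against DMSO was then tested for each gene in each line, to ask which subunits BET inhibition raised or lowered. In UM-SCC-47, FOSL1, FOS, FOSB and MAFF were lower and ATF3, JUND and JUN were higher with JQ1, and FOSL2 and JUNB did not pass the test. BATF3 had too few counts to be tested in this line. Of the 9 members tested 4 were called lower (edgeR adjusted p under 0.05) where 25.5% of the 13440 genes tested were, and 3 were called higher where 16.1% were. The same 7 members had DMSO and JQ1 libraries that did not overlap, as did 55.3% of all genes in either direction. The median log2 fold change of the 9 was -0.34 and that of all genes -0.032.

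In UPCI-SCC-090, FOS and JUNB were higher and FOSL1 and BATF3 were lower with JQ1. All 10 members were tested, and 2 were called lower (20.4% of the 13150 genes tested) and 2 higher (7.67%). The libraries of 5 members did not overlap, the 4 called ones and MAFF, against 40.5% of all genes. The calls above used no pairing of libraries. Same-numbered libraries of this line were taken as paired in an alternative fit, although their correlations did not settle whether they were. With the replicate number as a block FOSB (-1.29 ± 0.36, adjusted p = 0.045) and MAFF (-1.23 ± 0.33, adjusted p = 0.043) also passed, making 4 lower. With the block and a GC correction together neither did (FOSB -0.66, adjusted p = 0.1, and MAFF -0.42, adjusted p = 0.2). FOSB passed in no other alternative (adjusted p up to 0.72) and MAFF in 2 others, library-size scaling and 1 fit over all 12 libraries, with values from -0.42 to -1.37 and adjusted p up to 0.39. The median log2 fold change of the members was -0.088 and that of all genes -0.142. Of all genes called, 38.7% were higher in UM-SCC-47 and 27.4% in UPCI-SCC-090, and 48% and 42.3% with RLE or 24.1% and 17.1% with library-size scaling.

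**Figure D3:**
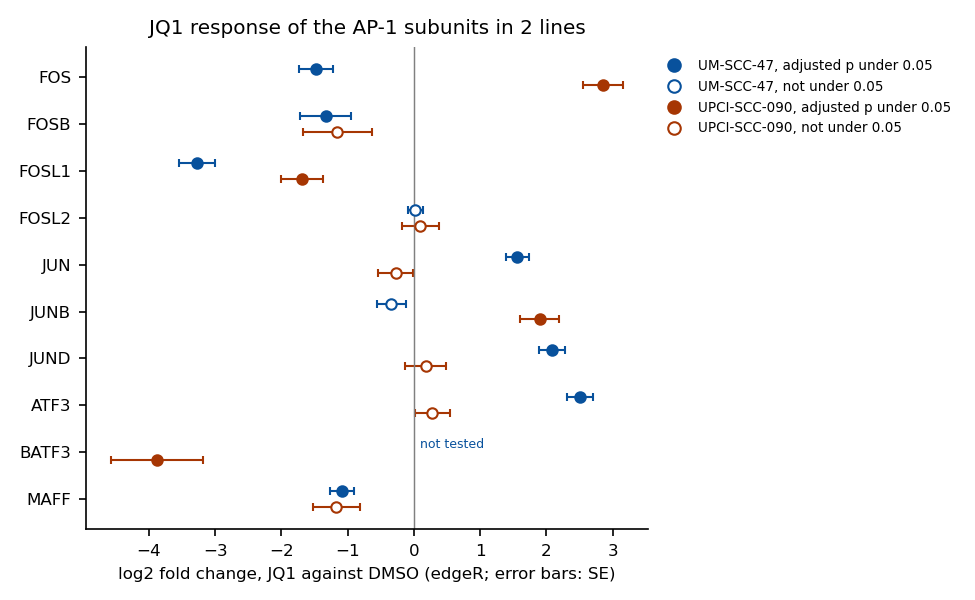
log2 fold change of JQ1 against DMSO (x axis, edgeR, error bars: SE) for each AP-1 gene (y axis) in UM-SCC-47 (blue) and UPCI-SCC-090 (brown), with filled points where the adjusted p was under 0.05. FOS lies at -1.48 in UM-SCC-47 and 2.85 in UPCI-SCC-090, while FOSL1 lies below 0 in both.

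FOSL1 (ENSG00000175592, GRCh37 chromosome 11 from 65659520 to 65668044), also known as FRA1 and tied to invasion in squamous carcinoma, had the largest fall of the members in UM-SCC-47. Its level was 34.6, 37.8 and 33.3 CPM in the UM-SCC-47 DMSO libraries and 4.76, 3.77 and 2.48 CPM with JQ1. In UPCI-SCC-090 it was 2.49, 4.25 and 2.58 CPM with DMSO and 0.982, 1.26 and 0.882 CPM with JQ1. All JQ1 libraries of a line lay below all its DMSO libraries, and the UPCI-SCC-090 DMSO level was already near the JQ1 level of UM-SCC-47. The log2 fold change was -3.27 ± 0.27 (SE, 9.67-fold lower, adjusted p = 0.00036) in UM-SCC-47 and -1.68 ± 0.32 (3.21-fold lower, adjusted p = 0.011) in UPCI-SCC-090. With the GC correction the latter was -0.93 ± 0.24 (adjusted p = 0.019). That call was lost without JQ1 replicate 1 (adjusted p = 0.1), without JQ1 replicate 3 (0.061) and without DMSO replicate 2 and JQ1 replicate 3 together (0.13), the libraries with the steepest GC slopes of this line.

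FOS (ENSG00000170345, GRCh37 chromosome 14 from 75745529 to 75748933), the founding member and an immediate early gene that growth factors induce within minutes, went in opposite directions. It was at 3.70, 3.95 and 3.40 CPM with DMSO and 1.56, 1.52 and 0.910 CPM with JQ1 in UM-SCC-47. In UPCI-SCC-090 it was at 1.20, 1.71 and 1.39 CPM with DMSO and 10.5, 14.2 and 9.09 CPM with JQ1. The groups did not overlap in either line, and the UPCI-SCC-090 JQ1 libraries were the highest of the 12. The log2 fold change was -1.48 ± 0.25 (2.79-fold lower, adjusted p = 0.0046) in UM-SCC-47 and 2.85 ± 0.30 (7.23-fold higher, adjusted p = 0.0037) in UPCI-SCC-090, where the GC correction gave 3.56 ± 0.20 (adjusted p = 0.00029). These levels rest on 18 to 116 counts per library in UM-SCC-47 and on 36 to 294 in UPCI-SCC-090.

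FOSB and FOSL2 complete the FOS subfamily. FOSB, the close relative of FOS, was at 1.02, 1.47 and 1.00 CPM with DMSO and 0.260, 0.506 and 0.657 CPM with JQ1 in UM-SCC-47, without overlap, and its log2 fold change of -1.33 ± 0.38 (adjusted p = 0.032) missed the threshold in 9 of 15 alternative settings (adjusted p 0.054 to 0.11). Those settings included leaving out any 1 DMSO replicate, JQ1 replicate 1 or JQ1 replicate 2, and the level rests on 7 to 39 counts per library. In UPCI-SCC-090 FOSB was at 2.39, 3.28 and 1.81 CPM with DMSO and 1.24, 2.13 and 0.422 CPM with JQ1, overlapping groups with a log2 fold change of -1.16 ± 0.52 (adjusted p = 0.15). FOSL2 (FRA2), a FOS protein of differentiating keratinocytes, lay between 130 and 308 CPM over the 12 libraries, with overlapping groups in both lines. Its log2 fold change was 0.02 ± 0.12 (adjusted p = 0.89) in UM-SCC-47 and 0.10 ± 0.27 (adjusted p = 0.83) in UPCI-SCC-090, and with counts corrected for the GC trend 0.28 (adjusted p = 0.049) and 0.56 ± 0.14 (adjusted p = 0.018).

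JUN (ENSG00000177606, GRCh37 chromosome 1 from 59242517 to 59249720), the strongest activator of its subfamily, rose in UM-SCC-47. Its level there was 52.5, 64.0 and 47.2 CPM with DMSO and 193, 154 and 142 CPM with JQ1, without overlap, a log2 fold change of 1.56 ± 0.18 (2.96-fold higher, adjusted p = 0.001). In UPCI-SCC-090 it was 103, 147 and 117 CPM with DMSO and 97.0, 162 and 75.3 CPM with JQ1. These groups overlapped, and the log2 fold change of -0.28 ± 0.26 (adjusted p = 0.5) turned to 0.25 with the GC correction, also short of the threshold.

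JUNB (ENSG00000171223, GRCh37 chromosome 19 from 12902300 to 12904129), a JUN protein that can oppose JUN at some promoters, rose in UPCI-SCC-090. It was at 47.5, 83.2 and 69.0 CPM with DMSO and 235, 396 and 188 CPM with JQ1, without overlap, a log2 fold change of 1.90 ± 0.29 (3.74-fold higher, adjusted p = 0.0058). With the GC correction it was 2.88 ± 0.12 (adjusted p = 0.00017). In UM-SCC-47 it was at 104, 148 and 108 CPM with DMSO and 111, 105 and 71.3 CPM with JQ1. The UM-SCC-47 groups overlapped, with a log2 fold change of -0.34 ± 0.22 (adjusted p = 0.26).

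JUND (ENSG00000130522, GRCh37 chromosome 19 from 18390504 to 18392432), the JUN protein that resting cells express most steadily, rose in UM-SCC-47. It was at 41.2, 48.2 and 41.5 CPM with DMSO and 215, 210 and 138 CPM with JQ1, without overlap, a log2 fold change of 2.09 ± 0.20 (4.25-fold higher, adjusted p = 0.0006). In UPCI-SCC-090 it was at 61.4, 121 and 103 CPM with DMSO and 108, 164 and 80.7 CPM with JQ1. These groups overlapped, and in each of them the libraries ranked as their GC slopes did. The log2 fold change was 0.18 ± 0.30 (adjusted p = 0.72), and with counts corrected for the GC trend of each library it was 1.40 ± 0.13 (adjusted p = 0.00053). The JUND call in UPCI-SCC-090 depended on that correction. The correction was made against the mean of all libraries of the line, JQ1 and DMSO together. It therefore also removes any GC trend between the treatments, whether technical or an effect of JQ1.

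ATF3 (ENSG00000162772, GRCh37 chromosome 1 from 212738676 to 212794119), a stress-induced factor that represses as a dimer with itself, had the largest rise among the members in UM-SCC-47. It was at 23.0, 24.3 and 20.7 CPM with DMSO and 121, 162 and 108 CPM with JQ1, without overlap, a log2 fold change of 2.51 ± 0.19 (5.69-fold higher, adjusted p = 0.00029). In UPCI-SCC-090 it was at 25.3, 37.0 and 34.9 CPM with DMSO and 42.8, 54.8 and 31.3 CPM with JQ1, overlapping groups with a log2 fold change of 0.28 ± 0.26 (adjusted p = 0.48).

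BATF3, a partner of JUN proteins known for its part in dendritic cell development, was measurable in UPCI-SCC-090. It had 79, 134 and 142 counts with DMSO (2.63, 5.86 and 4.59 CPM) and 17, 5 and 2 counts with JQ1 (0.618, 0.242 and 0.0767 CPM), without overlap. The log2 fold change was -3.88 ± 0.69 (14.7-fold lower, adjusted p = 0.0087), -4.74 without JQ1 replicate 1 and -2.94 without DMSO replicate 2 and JQ1 replicate 3. UM-SCC-47 libraries held 10, 2 and 4 counts with DMSO and 4, 2 and 0 with JQ1, where a count of 0 allows up to 3 counts, so a change was not detectable at this depth. MAFF, which pairs with NFE2 and BACH factors as well as with itself, was at 10.7, 12.5 and 10.2 CPM with DMSO and 4.79, 5.40 and 5.71 CPM with JQ1 in UM-SCC-47 (-1.08 ± 0.18, 2.12-fold lower, adjusted p = 0.0039). In UPCI-SCC-090 MAFF was at 3.29, 3.37 and 3.07 CPM with DMSO and 1.82, 2.18 and 0.806 CPM with JQ1. Its groups did not overlap in either line, and the UPCI-SCC-090 log2 fold change was -1.17 ± 0.36 (adjusted p = 0.053).

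**Figure D4:**
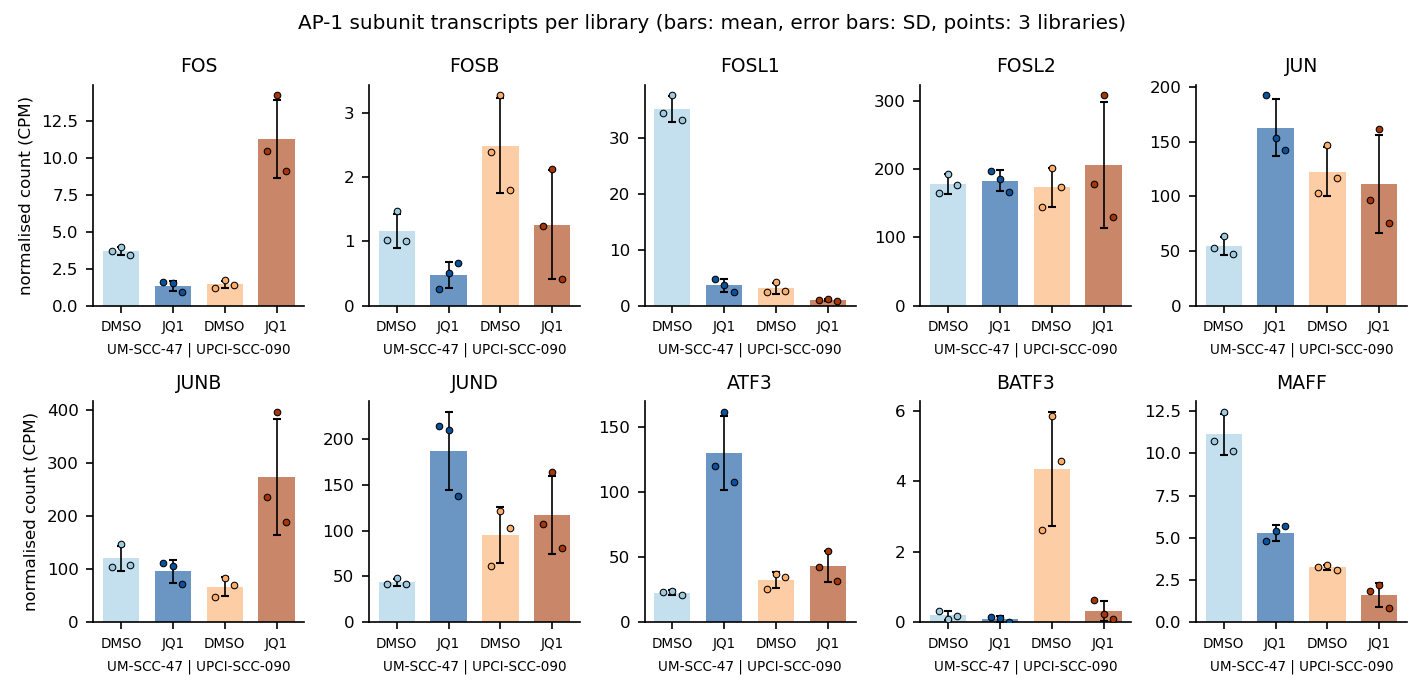
Level of each AP-1 gene (y axis, TMM-normalised CPM, linear from 0) in the 4 groups (x axis), with a bar for the mean, an error bar for the SD and 1 point per library (n = 3). JUN, JUND and ATF3 stand higher with JQ1 in UM-SCC-47, FOS and JUNB in UPCI-SCC-090.

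FOSB, JUNB and MAFF overlap a gene of the opposite strand that is also in the table (ERCC1, HOOK2 and PLA2G6). The libraries kept strand, but whether the counting used it is not known from the sources read, so the values of these 3 genes may include reads of their neighbours.

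The lines were also compared at each treatment, with all 12 libraries and 14396 genes in 1 model, which reuses the libraries above. With DMSO, FOSL1 (-3.50 ± 0.34, adjusted p = 6.9e-06), MAFF (-1.78 ± 0.33, adjusted p = 0.00097), FOS (-1.36 ± 0.30, adjusted p = 0.0029) and JUNB (-0.85 ± 0.32, adjusted p = 0.047) had the lower level in UPCI-SCC-090 (log2 differences). BATF3 (4.45 ± 0.73, adjusted p = 0.00039), JUN (1.16 ± 0.28, adjusted p = 0.0056) and JUND (1.13 ± 0.31, adjusted p = 0.012) were higher there. So 4 members were lower, against 19.9% of all genes, and 3 higher, against 23.3%. The JUNB call was lost in 4 and the JUND call in 3 of 14 alternatives, among them JUNB without any 1 of the UM-SCC-47 DMSO replicates (adjusted p up to 0.16) and JUND without UPCI-SCC-090 DMSO replicate 2 or 3 (up to 0.064). The BATF3 difference was 5.09 without UM-SCC-47 DMSO replicate 1.

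With JQ1 the line difference had the other sign for FOS and JUNB. FOS (3.08 ± 0.31, adjusted p = 1e-05) and JUNB (1.51 ± 0.32, adjusted p = 0.0023) were higher in UPCI-SCC-090, and FOSL1 (-1.82 ± 0.33, adjusted p = 0.00084), MAFF (-1.73 ± 0.34, adjusted p = 0.0013) and ATF3 (-1.60 ± 0.26, adjusted p = 0.0004) were lower. That made 2 higher, against 24% of all genes, and 3 lower, against 20.9%. JUN (-0.55 ± 0.28, adjusted p = 0.14) and JUND (-0.67 ± 0.31, adjusted p = 0.1) missed the threshold and passed it in 6 of 14 alternatives, among them without UM-SCC-47 JQ1 replicate 3 or UPCI-SCC-090 JQ1 replicate 2. The FOSL1 difference was -2.40 without the first of these.

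The difference of the JQ1 response itself, tested as the interaction of line and treatment, passed for 6 of the 10 members, where 6.56% of all genes passed, 3 of them with a positive difference (2.93% of all genes) and 3 with a negative one (3.63%). FOS (4.44 ± 0.43, adjusted p = 0.00028) and JUNB (2.36 ± 0.45, adjusted p = 0.0099) responded more positively in UPCI-SCC-090, and ATF3 (-2.12 ± 0.37, adjusted p = 0.0064) more negatively, and these 3 passed in all 20 alternative settings. JUN (-1.71 ± 0.40, adjusted p = 0.025), JUND (-1.80 ± 0.44, adjusted p = 0.034) and FOSL1 (1.68 ± 0.45, adjusted p = 0.049) were nearer the threshold and lost the call in 6, 10 and 13 of the 20. Leaving out UM-SCC-47 DMSO replicate 1 or 3, UM-SCC-47 JQ1 replicate 1 or UPCI-SCC-090 JQ1 replicate 1, 1 at a time, ended the calls of all 3 (adjusted p 0.062 to 0.12). UPCI-SCC-090 DMSO replicate 2 did so for JUN and JUND (0.063 and 0.081). The JUND call also ended without UM-SCC-47 DMSO replicate 2 (0.071), UM-SCC-47 JQ1 replicate 2 (0.066) or UPCI-SCC-090 JQ1 replicate 3 (0.057), and the FOSL1 call without any 1 of the 12 libraries but UPCI-SCC-090 DMSO replicate 2 (0.052 to 0.12). The JUND difference was -1.16 ± 0.16 with the GC correction. For FOSB, FOSL2, BATF3 and MAFF the difference was 0.32 ± 0.73, 0.21 ± 0.39, -2.71 ± 1.3 and 0.05 ± 0.48, none of which passed, and the wide errors do not show that the lines responded alike.

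Genes whose pattern over the 12 libraries was closest to a member were ranked by the root mean square difference of centred log2 CPM. RHOV (0.20), POLR2J3 (0.37) and the metallothionein MT1X (0.47) were nearest to FOS, where the median of 10402 genes was 1.30. POLR2J3 and MT1X belong to families of near-identical copies, so their counts are uncertain. FAT2 (0.40), HSF2BP (0.42) and MROH6 (0.45) were nearest to FOSL1 (median 1.89), and MFSD12 (0.22), SPATA2L (0.23) and TUFT1 (0.23) to JUND (median 1.10).

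Other genes of the AP-1 circuit were taken from lists drawn up with earlier results of these data known, and are described by counts. Of 16 further AP-1 and MAF bZIP partners, 13 were tested in UM-SCC-47, where BACH2 (-2.07, adjusted p = 0.0013) was lower and MAF (1.65, adjusted p = 0.0018) and MAFK (0.58, adjusted p = 0.023), a small MAF like MAFF, were higher. In UPCI-SCC-090 1 of 14 was lower and 1 higher, the latter JDP2 (1.17, adjusted p = 0.041), which represses JUN-containing dimers. The list medians were 0.286 and 0.024 on the log2 scale. Beside all list counts in UM-SCC-47 stand shares of 25.5% lower and 16.1% higher over all genes, and in UPCI-SCC-090 20.4% and 7.67%. Of the partners, 7.69% were lower and 15.4% higher in UM-SCC-47 and 7.14% each way in UPCI-SCC-090.

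Among 25 immediate early genes, which growth signals switch on together with FOS, 20 were tested in UM-SCC-47, with 5 lower and 10 higher and a median of 0.644. EGR1 (-3.80, adjusted p = 0.00013), a zinc finger factor induced through the same serum response pathway as FOS, NR4A2 (-0.85, adjusted p = 0.0092) and MYC (-0.94, adjusted p = 0.003) were lower. CCN2 (4.57, adjusted p = 5.1e-05) and CCN1 (2.13, adjusted p = 0.00023), matricellular genes of the YAP program, and the MAP kinase phosphatase DUSP1 (2.07, adjusted p = 0.00033) were higher. In UPCI-SCC-090 3 of 22 were lower, KLF6 (-1.69, adjusted p = 0.0084), MYC (-1.43, adjusted p = 0.01) and SGK1 (-1.01, adjusted p = 0.023), and 4 were higher, among them IER5 (2.59, adjusted p = 0.004) and BTG2 (2.42, adjusted p = 0.0037), with a median of 0.054. The lower and higher shares were 25% and 50% against 25.5% and 16.1% of all genes in UM-SCC-47, and 13.6% and 18.2% against 20.4% and 7.67% in UPCI-SCC-090.

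The 23 genes of the MAP kinase and serum response input to AP-1 were all tested in both lines. In UM-SCC-47 MAPK3 (ERK1, -1.50, adjusted p = 0.00073), MAP2K6 (-1.31, adjusted p = 0.0036) and MAPK7 (-0.98, adjusted p = 0.0062) were lower. Of the 5 that were higher, MAPK8 (JNK1, a kinase of JUN) was at 1.07 (adjusted p = 0.0074), MAP2K3 at 0.82 (adjusted p = 0.0074) and SRF, the serum response factor, at 0.59 (adjusted p = 0.017). In UPCI-SCC-090 MAPK3 (-1.55, adjusted p = 0.012) and MAPK7 (-1.73, adjusted p = 0.02) were lower and 0 were higher by edgeR, with 2 higher at an unadjusted p under 0.05 and 1 by DESeq2. The medians were 0.11 and 0.02. The lower and higher shares were 13.0% and 21.7% against 25.5% and 16.1% of all genes in UM-SCC-47, and 8.70% and 0% against 20.4% and 7.67% in UPCI-SCC-090.

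Of 30 known AP-1 target genes 21 were tested in UM-SCC-47, with 6 lower and 7 higher and a median of 0.007, and 18 in UPCI-SCC-090, with 7 lower and 7 higher and a median of 0.311. The lower and higher shares were 28.6% and 33.3% against 25.5% and 16.1% of all genes in UM-SCC-47, and 38.9% each way against 20.4% and 7.67% in UPCI-SCC-090. The cornified envelope genes IVL and TGM1 fell in UM-SCC-47 (-1.07, adjusted p = 0.0034, and -1.59, adjusted p = 0.0013) and rose in UPCI-SCC-090 (3.64, adjusted p = 0.0044, and 1.27, adjusted p = 0.046). IVL had 1 to 4 counts per DMSO library and 26 to 32 per JQ1 library in UPCI-SCC-090. HMOX1, a heme oxygenase of the stress response, rose in both (1.92, adjusted p = 0.00075, and 2.91, adjusted p = 0.0038), as did the EGF receptor ligand HBEGF (2.34, adjusted p = 0.0012, and 1.14, adjusted p = 0.048). The stress keratin KRT16 (6.09, adjusted p = 0.0015) and the protease PLAU (2.37, adjusted p = 0.0051) rose in UPCI-SCC-090, where the matrix protease MMP10 (-3.72, adjusted p = 0.0045), IL1A (-2.75, adjusted p = 0.039) and TIMP1 (-1.52, adjusted p = 0.023) fell.

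Several of these list calls did not hold when 1 library was left out, which also leaves the test fewer libraries. In UM-SCC-47 MAFK and SRF lost theirs without DMSO replicate 1, DMSO replicate 3 or JQ1 replicate 1 and NR4A2 without DMSO replicate 1. In UPCI-SCC-090 IVL, HMOX1, IER5, BTG2, MMP10, KRT16 and PLAU passed in all 15 alternatives. KLF6 lost its call there without JQ1 replicate 1, MYC without JQ1 replicate 1 or 3, and MAPK3 without those or DMSO replicate 3. MAPK7 and TIMP1 lost theirs without DMSO replicate 2 or 3 or JQ1 replicate 1 or 3, IL1A without DMSO replicate 1 or 3 or JQ1 replicate 1 or 2, SGK1 with any library but JQ1 replicate 2 left out, JDP2 with any but JQ1 replicate 3, and TGM1 and HBEGF with any 1 of the 6. Other settings ended calls too. MAPK8 in UM-SCC-47 missed the threshold with the GC correction (adjusted p = 0.051), with that and the block (0.086) and in 1 fit over all 12 libraries (0.085). In the last MAPK7, MAP2K3, MAFK, SRF and NR4A2 missed it too. MAFK and SRF in UM-SCC-47 and TGM1, HBEGF and JDP2 in UPCI-SCC-090 lost theirs with library-size scaling, and MYC, MAPK3, MAPK7, HBEGF, SGK1 and TIMP1 in UPCI-SCC-090 with RLE. SGK1 and TIMP1 in UPCI-SCC-090 also lost theirs with DESeq2, and HBEGF, JDP2 and TIMP1 there without the filter on low counts. Without the libraries of the steepest GC trend, MYC, MAPK3, MAPK7, SGK1 and TIMP1 lost theirs in that line. With 1 library left out, the lower and higher counts in UM-SCC-47 ran from 1 to 2 and 1 to 4 for the partners, 3 to 5 and 8 to 12 for the immediate early genes, 3 to 6 and 2 to 6 for the kinase and serum response genes, and 6 to 9 for the lower targets, the higher ones staying at 7. In UPCI-SCC-090 they ran from 0 to 1 and 0 to 1, 0 to 5 and 2 to 6, 0 to 4 and 0 to 1, and 2 to 5 and 4 to 6. With the replicate number as a block in UPCI-SCC-090, the lower counts went to 2 partners, 5 immediate early genes and 4 kinase and serum response genes, and 1 gene of the last list was higher. Over all 15 alternatives in UPCI-SCC-090 the higher counts reached 5 partners, 10 immediate early genes, 6 kinase and serum response genes and 9 targets. In UM-SCC-47 the higher kinase and serum response genes ran from 0 to 6.

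**Figure D5:**
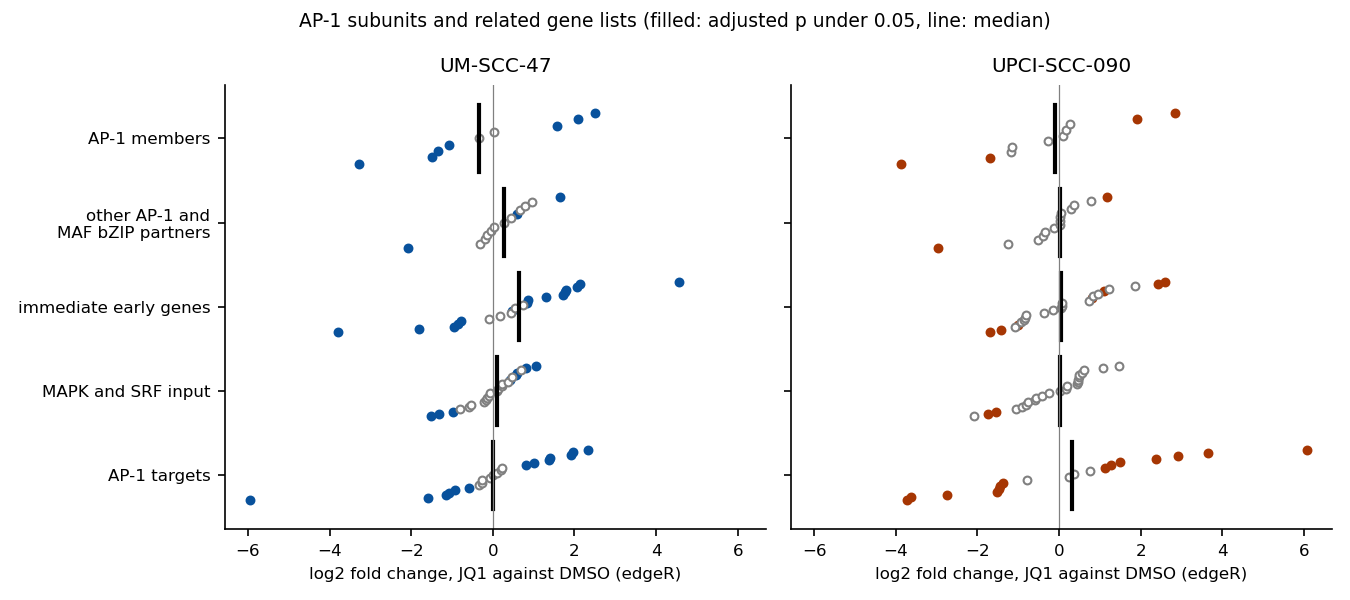
log2 fold change of JQ1 against DMSO (x axis, edgeR) for each tested gene of the AP-1 members and 4 related lists (y axis) in UM-SCC-47 (left) and UPCI-SCC-090 (right), filled where the adjusted p was under 0.05, with the list median as a line. Each list has genes on both sides of 0 in both lines, with medians between -0.34 and 0.644.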

How the data were processed

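Total RNA of UM-SCC-47 and UPCI-SCC-090 cells was sequenced with the TruSeq stranded total RNA Gold kit. The authors deposited estimated counts per gene that were not yet scaled. Salmon (0.8.2) and DESeq2 (1.28.0) are the tools in the submitters' processing notes. The transcript index and build were not given in the sources used here.

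Counts were rounded, filtered with filterByExpr (minimum count 10, minimum total 15), scaled by TMM and tested by quasi-likelihood in edgeR 4.0.16 (R 4.3.3). Each line was fitted alone, and the line comparisons and the interaction used 12 libraries. A call is an edgeR p under 0.05 after Benjamini-Hochberg adjustment over all genes tested, and SE is the absolute log2 fold change over the root of F. CPM were normalised over the 12 libraries. Positions, lengths and GC content are from GENCODE 44 on GRCh37, which held 20015 of the 20738 gene IDs.

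The members and gene lists were chosen with earlier results of these data known. Other genes were named if they were among the 3 largest calls of a list in each direction and line, averaged 5 CPM or more in 1 of the groups and had non-overlapping DMSO and JQ1 libraries, or were among the 3 nearest to FOS, FOSL1 or JUND, and 1 gene that met this rule is not reported here. Same-numbered DMSO and JQ1 libraries correlated in their deviations from group means at 0.112, 0.843 and 0.236 in UPCI-SCC-090, which were taken as paired since each was over 0.1, although differently numbered ones there ran from -0.906 to 0.86, and at -0.23, 0.226 and 0.549 in UM-SCC-47, which were not. The main fits of both lines used no pairing. Alternatives with a replicate block were run in UM-SCC-47 too, where they rest on a pairing by number that is not borne out. Replicates differed by more than sampling noise (chi-square per gene 8.68 to 449), and 3 libraries per group set the precision. Alternatives were RLE and library-size scaling, no filter, DESeq2 1.42.0, a replicate block, a GC correction, other lengths and leaving out libraries. The GC correction took out the trend of each library against the mean of its line, both treatments together.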

Additional observations from a re-analysis of the deposited data

Results flagged for a closer look

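The tested difference of the JQ1 response between the lines (UPCI-SCC-090 minus UM-SCC-47, log2 scale, edgeR interaction over 12 libraries) singled out 21 of the genes named here. Among the AP-1 members it was 4.44 for FOS, 2.36 for JUNB, 1.68 for FOSL1, -1.71 for JUN, -1.80 for JUND and -2.12 for ATF3, as described above with their errors. The FOS difference came from opposite changes in the 2 lines, and the FOSL1 difference from falls of unequal size in both.

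Of the genes of the related lists, the difference was positive for EGR1 (3.99, adjusted p = 0.00062), IER5 (2.16, adjusted p = 0.012), MAP2K6 (1.57, adjusted p = 0.023), TGM1 (2.98, adjusted p = 0.0049), IVL (4.82, adjusted p = 0.00031), KRT16 (5.39, adjusted p = 1.9e-05) and PLAU (2.82, adjusted p = 0.0017). It was negative for CCN2 (-3.68, adjusted p = 1.1e-05), CCN1 (-2.85, adjusted p = 0.00095), KLF6 (-2.07, adjusted p = 0.0016) and SGK1 (-1.80, adjusted p = 0.0025). The MAP2K6 call was lost in 9 of 20 alternatives, among them each of UM-SCC-47 DMSO replicates 1 and 3, UM-SCC-47 JQ1 replicates 1 and 3, UPCI-SCC-090 DMSO replicates 2 and 3 and UPCI-SCC-090 JQ1 replicate 1 left out (adjusted p up to 0.098), and the other 10 held in all 20. Of the genes with patterns nearest to a member, RHOV (3.43, adjusted p = 0.002), POLR2J3 (2.65, adjusted p = 0.0036), MT1X (3.05, adjusted p = 0.00061) and FAT2 (2.49, adjusted p = 0.00091) also passed. The first 3 were ranked by likeness to FOS and FAT2 by likeness to FOSL1 over these same libraries, so their differences are no independent support for those of the members.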

How the results depend on the processing

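Over 765 member values under alternative settings, 656 kept their direction and side of the threshold, 48 lost the call, 29 gained one and 32 changed sign. For JQ1 against DMSO in UM-SCC-47, leaving out the steepest GC library and leaving out JQ1 replicate 3 are the same fit. That fit is counted under both names. No called value changed sign. Scaling moved the whole table: the median log2 fold change of all genes went from -0.032 to 0.116 (RLE) and -0.281 (library size) in UM-SCC-47 and from -0.142 to 0.141 and -0.379 in UPCI-SCC-090. The share of calls that were higher went from 38.7% to 48%, 24.1%, 50.6% and 51% (RLE, library size, DESeq2, GC correction) and from 27.4% to 42.3%, 17.1%, 43.2% and 52.2%. Over all genes, higher calls went from 2163 to 3484 (GC correction), 1348 (1 fit over 12 libraries) and 1198 to 3051 (without 1 replicate) in UM-SCC-47, and from 1009 to 3359, 1915 and 371 to 1303 in UPCI-SCC-090, where library size gave 635 and lower calls went from 2680 to 1755 (RLE) and 1009 to 2801 (without 1 replicate). The 523 negative and 422 positive differences of response became 1327 and 1220 (GC correction), 326 and 299 (without the steepest GC libraries), and 256 to 1123 and 201 to 652 (without 1 replicate). The cause was not tested.

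Counts of members called moved in these cases. In UPCI-SCC-090 2 lower members became 4 with the replicate block, 1 without the libraries of the steepest GC trend and 1 to 2 without 1 replicate, and 2 higher became 4 with the GC correction, alone or with the block. With DMSO, 3 members higher in UPCI-SCC-090 became 5 with the GC correction, alone or with the block. With JQ1, 3 lower became 5 with library-size scaling, the replicate block, the GC correction or both, and 3 to 5 without 1 replicate. The 3 negative differences of response became 1 without the steepest GC libraries and 1 to 3 without 1 replicate. The block changed no other count of members by over 1.5 times. Same-numbered libraries of the 2 lines correlated at 0.059, 0.36 and -0.097 with DMSO and -0.177, 0.607 and 0.819 with JQ1, so numbers do not pair the lines. Blocked fits of the line comparisons and of the difference of response still matched libraries of the 2 lines by number. Their counts rest on a pairing that is not borne out here.

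Sign changes were all in values that missed the test. In UM-SCC-47 FOSL2 became -0.22 (library size) and JUNB 0.046 (GC correction) and 0.045 (with the block). In UPCI-SCC-090 FOSL2 became -0.095 and JUND -0.017 (library size), and JUN became 0.040 (RLE), 0.056 (DESeq2), 0.25 (GC correction), 0.25 (with the block) and 0.27 (without the steepest GC libraries). The MAFF difference became -0.033 (library size) and -0.010 (replicate block). Without 1 replicate, the range of FOSL2 was -0.032 to 0.21 in UM-SCC-47 and -0.14 to 0.47 in UPCI-SCC-090, that of JUN -0.48 to 0.062 and of JUND -0.033 to 0.50 in UPCI-SCC-090, that of the FOSL2 line difference -0.24 to 0.025 with DMSO and -0.30 to 0.42 with JQ1, and that of the difference of response -0.26 to 0.75 for FOSB, -0.21 to 0.45 for FOSL2 and -0.23 to 0.37 for MAFF.

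The share of JUNB within the JUN subfamily was, in the order UM-SCC-47 DMSO and JQ1 and UPCI-SCC-090 DMSO and JQ1, 63.3%, 26.8%, 30.4% and 61.8% with the exon union length and 62.3%, 26.2%, 29.4% and 61.0% with the canonical transcript length, a length added after seeing the data. With no length correction it was 54.8%, 21.4%, 23.3% and 54.3%. The JUN to FOS ratio was 2.29, 6.90, 4.42 and 7.37, then 2.12, 6.57, 4.21 and 6.67, then 0.997, 2.35, 1.56 and 2.32. The JUNB share was thus higher with DMSO in UM-SCC-47 and with JQ1 in UPCI-SCC-090 under every one of these treatments of length. Genes at a few counts (FOSB, BATF3) are limited by depth.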

Other observations

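With DMSO, known AP-1 target genes mostly had their higher level in UM-SCC-47. Of the 24 tested, 17 were lower in UPCI-SCC-090, against 19.9% of all genes, and 4 were higher, against 23.3%, with a list median of -2.08 on the log2 scale where the median of all genes was 0.15. The lower ones included the cytokines IL6, IL1B, CXCL8 and LIF and the plasminogen activation genes PLAU and PLAUR, and the higher ones were MMP10, HBEGF, MMP9 and KRT16, names chosen after their values were seen. With JQ1 the counts were 16 lower, against 20.9% of all genes, and 4 higher, against 24%. Further AP-1 and MAF partners were split, 4 lower and 4 higher of 14 with DMSO.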
